A study of Drosophila melanogaster with 12 samples.

Results

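The vacuolar H+-ATPase (V-ATPase) genes of Drosophila melanogaster were taken as every gene whose FlyBase symbol begins with Vha followed by a digit, a letter or a hyphen. This rule found 33 genes among the 16524 rows of the pharate count table, and the same 33 among the 15807 rows of the adult table. By background knowledge of their expression, 9 encode ubiquitous subunits of the V1 sector, 6 encode ubiquitous subunits of the V0 sector, 2 encode accessory proteins, 9 are testis-biased paralogs and 7 are other paralogs whose tissue bias was not assigned. They lie on chromosome arms 2L (6 genes), 2R (8), 3L (5) and 3R (12) and on the X chromosome (2).

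The V-ATPase is a rotary proton pump. The cytosolic V1 sector hydrolyses ATP and turns a central stalk, and the membrane-embedded V0 sector carries protons across the membrane on a rotating ring of proteolipid subunits. In every cell it acidifies lysosomes and endosomes. In insects it also sits in the apical plasma membrane of the principal cells of the Malpighian tubule, where its proton gradient energises fluid secretion, and in the copper cells of the midgut, which secrete acid. Many subunits have paralogs in the fly genome, and several of these are known mainly from the testis.

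RNA was sequenced from guts of flies mutant for Hinfp, which encodes a zinc finger protein and whose vertebrate counterpart controls histone gene transcription, and of control strains. The pharate set came from males, fully formed adults not yet out of the pupal case, and from guts with Malpighian tubules. It held 8 libraries, 2 each of the deletion mutant (Hinfp2-DelMut), the point mutant (Hinfp3-PointMut), the FRT19A control and the W1118 control. The adult set held 1 intestine library each of the Hinfp2 mutant, of that mutant with UAS-Hinfp-HA driven by tub-Gal4, of that mutant with UAS-His1-HA driven by tub-Gal4, and of the FRT19A control. The driver tub-Gal4 is active in nearly all cells, and neither the adult mutant nor the adult control carried it. The genotypes are listed as Y/Hinfp2 for the mutant, Y/Hinfp2 with tub-Gal4/UAS-Hinfp-HA and Y/Hinfp2 with tub-Gal4/UAS-His1-HA for the rescues, and Y/FRT19A for the control, so both rescues carry the deletion. Each library pooled about 50 guts from flies kept at 25 °C. Mutants and rescues were 8 to 9 days old and controls 5 to 6 days old, so genotype and age cannot be told apart.

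Every pharate group had a library tagged SE and a library tagged PE, tags that the labels did not spell out. Gene counts ran from 21924226 to 28740669 per pharate library and from 17991664 to 20271512 per adult library. Hinfp itself stood at 5.71 to 9.66 CPM, the read count scaled to a common library size, in the mutants, against 9.83 to 17.1 CPM in the controls (edgeR, log2 fold change -0.87, Benjamini-Hochberg adjusted p = 0.0837). Its transcript therefore did not pass the test and does not by itself check the labels. The linker histone row HIS1 stood at 0.112 to 1.80 CPM in the mutants, against 4.15 to 223 CPM in the controls. The controls were split by tag, with 6.04 CPM (FRT19A) and 4.15 CPM (W1118) in the SE libraries. In the PE libraries they had 169 and 223 CPM. All 8 principal-cell and all 5 stellate-cell markers of the tubule were detected in each pharate library, and so were all 8 enterocyte markers. Fewer cells of a type and less RNA per cell cannot be told apart in such bulk samples.

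Levels were compared between genes per transcript length, in the authors' TPM values, which scale reads by gene length and library size. Vha16-1, which encodes the proteolipid c of the rotating ring, was highest, at 3928 to 8300 TPM in the mutants and 4814 to 9646 TPM in the controls. Next by median over the 8 libraries came Vha68-2 (2233 TPM, catalytic subunit A), Vha26 (2218 TPM, peripheral stalk subunit E), Vha13 (2162 TPM, peripheral stalk subunit G) and Vha55 (1487 TPM, nucleotide-binding subunit B). These 4 subunits and the proteolipid c are each known to be present in several copies per pump. The neighbours Vha68-2, Vha26 and Vha13 had overlapping ranges, and their order changed between libraries.

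The genes of the remaining core subunits lay lower and close together. Their medians were 1166 TPM for VhaPPA1-1 (proteolipid c''), 964 TPM for Vha14-1 (rotor subunit F), 962 TPM for Vha36-1 (rotor subunit D), 929 TPM for VhaAC39-1 (subunit d, which joins the rotor to the ring), 872 TPM for VhaM9.7-b (the small membrane subunit e), 734 TPM for VhaSFD (regulatory subunit H) and 733 TPM for Vha44 (subunit C, which links the stalks). Summed over paralogs, the proteolipid c held the first place among the 13 core positions in all 8 libraries and subunit A the third. Subunits E and G held places between the second and the fifth, while subunit B ranged from the fifth to the ninth. Subunit a, mostly Vha100-2 (527.5 to 1108 TPM, median 695 TPM), moved most, from the fourth place in the point mutant PE library (1200.2 TPM) to the twelfth in FRT19A SE (1083 TPM). For Vha55 the SE and PE libraries did not overlap, while mutants and controls did: it had 1845 to 2598 TPM in the SE libraries and 672 to 1128 TPM in the PE libraries.

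**Figure D1:**
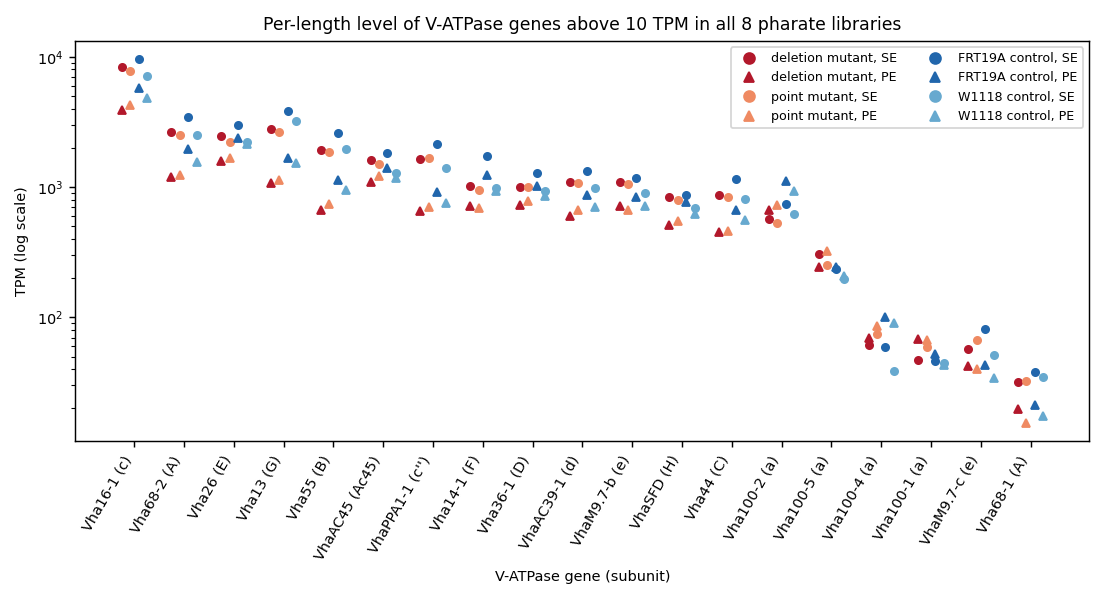
Levels of the 19 V-ATPase genes above 10 TPM in all 8 pharate libraries, on a log axis, with 1 point per library (circles SE, triangles PE; red and orange for the mutants, blue for the controls) and the subunit in brackets. Vha16-1 is highest throughout, at 3928 to 9646 TPM, and the genes from Vha100-5 onward fall below all core subunits.

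The V-ATPase share of all gene counts was 2.68 to 3.49% in the mutants, against 3.14 to 4.27% in the controls, and these ranges overlapped. In the fit of 4 mutant against 4 control libraries, 31 of the 33 genes had enough counts to be tested. None passed an adjusted p of 0.05 in either direction (edgeR quasi-likelihood test, Benjamini-Hochberg adjusted over 13244 genes). Across all genes tested, 4.59% were called higher and 6.34% lower. At an unadjusted p under 0.05 (edgeR) there were 2 of the 31, beside 3438 of all 13244 genes. Both were testis-biased paralogs and are described with that class. DESeq2 called 1 higher and 0 lower (9.11% of all genes were called higher by DESeq2).

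All 9 ubiquitous V1 genes had lower fitted levels in the mutants, and none of them passed the test. Their median log2 fold change was -0.38, with a range of -0.59 to -0.19, beside a median of -0.01 over all genes tested. The adjusted p (edgeR, Benjamini-Hochberg) ran from 0.193 to 0.611. The difference between the control strains was as large: W1118 over FRT19A had a median of -0.43 for the same 9 genes, all negative, and 0 calls, as over all genes (0% in either direction, with 606 genes at an unadjusted p under 0.05). For all 9 W1118 lay below FRT19A in both tags, with the wider gap in the SE libraries. Vha26, for example, had 2838 against 4792 CPM in the SE libraries and 5105 against 5405 CPM in the PE libraries.

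The rotor subunit gene Vha14-1 had the largest difference of the class. In the deletion mutant it stood at 315 CPM (SE) and 355 CPM (PE), and in the point mutant at 314 and 364 CPM, against 621 and 632 CPM in the FRT19A libraries and, in the W1118 libraries, 280 and 497 CPM. The W1118 SE library was the lowest of all 8, and the other 3 controls lay above all 4 mutants. Its log2 fold change of -0.59 (SE 0.26) did not pass (edgeR, adjusted p = 0.193).

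Vha13, the peripheral stalk gene, was at 1235 CPM (SE) and 769.5 CPM (PE) in the deletion mutant and at 1263 and 847 CPM in the point mutant, against 1964 and 1223 CPM in the FRT19A libraries and, in the W1118 libraries, 1320 and 1174 CPM. Within each tag both mutants lay below both controls. Its log2 fold change was -0.47 (SE 0.26; edgeR, Benjamini-Hochberg adjusted p = 0.322). With the replicate number as a block, which pairs the libraries of 1 tag, Vha13 fell by 0.48 on the log2 scale (edgeR, adjusted p = 0.0439) and was the single V-ATPase gene called lower, beside 19.2% of all genes tested in that fit.

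The catalytic and nucleotide-binding subunit genes Vha68-2 and Vha55 had lower mean levels in the mutants without passing. Unlike for Vha13, both SE mutants lay above W1118 SE, though below FRT19A SE. Vha68-2 had 3422 and 3499 CPM in the SE mutants against 3010 CPM in W1118 SE. Vha55 had 2520 and 2586 CPM against 2368 CPM. Vha68-2 had 3025 ± 514 CPM in the mutants and 3963 ± 917 CPM in the controls (SD, n = 4 each; log2 -0.39, SE 0.26). Vha55 had 2042 ± 599 CPM in the mutants and 2721 ± 815 CPM in the controls (log2 -0.41, SE 0.31). The second A-subunit gene, Vha68-1, supplied 1.19 to 1.63% of the A-subunit TPM in the mutants and 1.08 to 1.35% in the controls, and its log2 fold change was -0.19 (SE 0.16).

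Vha26 averaged 3496 ± 278 CPM in the mutants and 4535 ± 1159 CPM in the controls (SD, n = 4 each), a log2 fold change of -0.38 (SE 0.27). The controls of this stalk gene were split, with 4792, 5405 and 5105 CPM in FRT19A SE, FRT19A PE and W1118 PE, all above the mutants, and 2838 CPM in W1118 SE, below them all. Vha44, Vha36-1 and VhaSFD had log2 fold changes of -0.34, -0.27 and -0.21 (SE 0.22, 0.23 and 0.23). None of the 3 passed the edgeR test. The exons of Vha44 overlap Hmgs on the opposite strand.

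The 6 ubiquitous V0 genes had a median log2 fold change of -0.23, and 5 of them were negative. Vha16-1, the proteolipid c gene, averaged 10882 ± 1404 CPM in the mutants and 12897 ± 2789 CPM in the controls (SD, n = 4 each; log2 -0.25, SE 0.31). VhaAC39-1, VhaPPA1-1 and VhaM9.7-b had log2 fold changes of -0.24, -0.22 and -0.10 (SE 0.20, 0.29 and 0.19). Between the control strains, W1118 over FRT19A had a median of -0.45 over the 6 genes, again all negative and with 0 calls. For Vha16-1, W1118 had 9548 CPM against 16102 CPM in FRT19A in the SE libraries. In the PE libraries the values were 12009 and 13928 CPM.

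Across the 15 ubiquitous genes of both sectors, no gene had all 4 mutants below all 4 controls, where 12.2% of all genes tested did. The W1118 SE library was the lowest control for 11 of the 15. In 8 of the 15 all 4 mutants lay below the other 3 controls (17.8% of all genes tested), a count taken after these values were seen. Within the PE libraries both mutants lay below both controls for 13 of the 15, the exceptions being Vha68-1 and Vha100-1, beside 36.3% of all genes. Within the SE libraries this held for 2, Vha13 and Vha100-2, beside 29.2%.

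Mutant means of the 9 V1 genes were 63.7 to 88.4% of the control mean in PE libraries and 69.7 to 103% in SE libraries. The 6 V0 genes were at 66.5 to 138% in PE libraries and 79.2 to 117% in SE libraries. The test of the mutant effect in PE minus SE libraries called none of the 15 (edgeR, the smallest adjusted p was 0.647). Without the W1118 SE library, Vha14-1 fell by 0.81 on the log2 scale (edgeR, adjusted p = 0.0180), beside 8.38% of genes called lower in that fit.

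In the PE libraries alone Vha14-1 and Vha13 fell by 0.62 and 0.54 on the log2 scale (edgeR, adjusted p = 0.0403 and 0.0355), beside 16.9% of all genes called lower. The SE libraries alone gave no V-ATPase gene and no gene of the whole table in either direction (0% and 0%). Summed markers of the tubule principal cells, where the pump is abundant, were 2225 to 3078 CPM in the mutants and 1826 to 2695 CPM in the controls, with none of the 8 at 0. One of them, the urate oxidase gene Uro, had 510 to 1253 CPM in the mutants and 10.2 to 91.6 CPM in the controls. Without it, a split made after its values were seen, the sum was 1654 to 1835 CPM in the mutants, against 2684 CPM (SE) and 2390.3 CPM (PE) in FRT19A and 1804 CPM (SE) and 2213 CPM (PE) in W1118. All 4 mutants then lay below 3 of the 4 controls, and W1118 SE lay within the mutant range. The markers in this sum differed among themselves. Irk3, also a member of the transport list described below, averaged 184 CPM in the mutants and 571 CPM in the controls. Alp4 had 137 to 189 CPM in the mutants and 135 to 525 CPM in the controls. CapaR overlapped, at 43.6 to 74.1 CPM in the mutants and 52.9 to 77.4 CPM in the controls. Stellate-cell markers summed to 290 to 404 CPM in the mutants and 441 to 646 CPM in the controls, and enterocyte markers to 7162 to 12775 CPM in the mutants and 3116 to 9240 CPM in the controls. The part of these cell types in the V1 and V0 values was not tested.

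**Figure D2:**
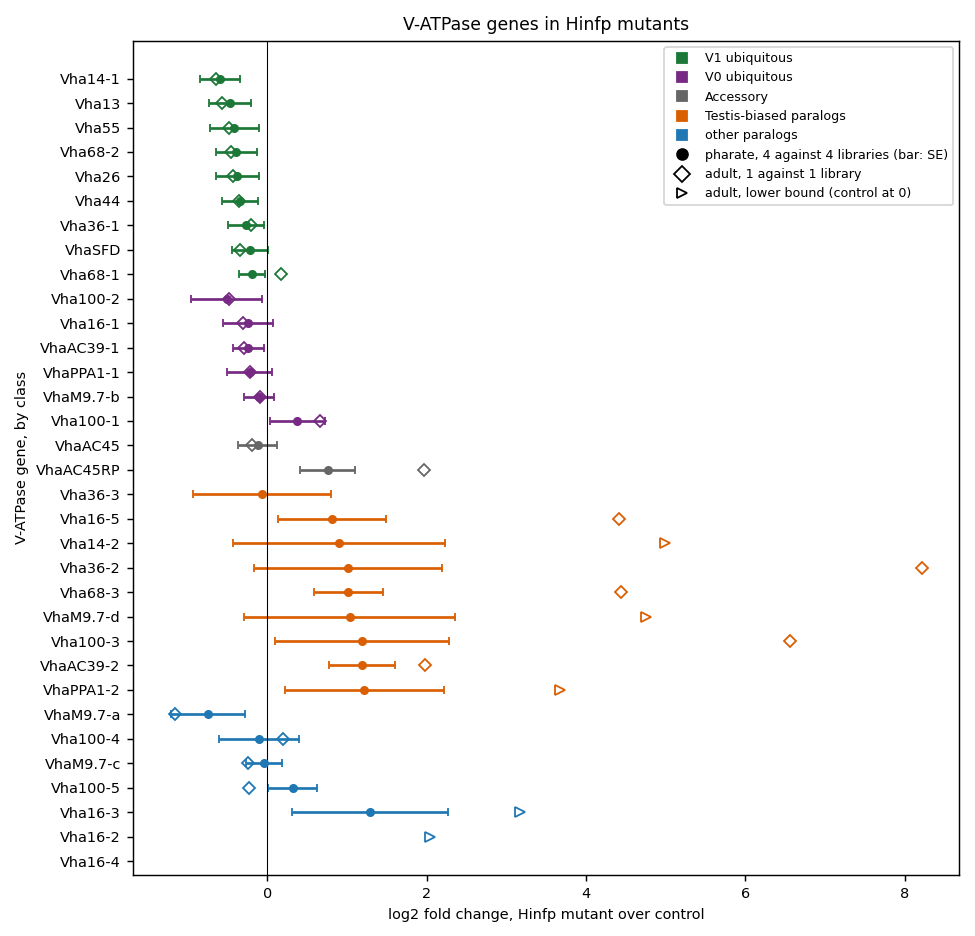
Log2 fold change of each V-ATPase gene in Hinfp mutants over controls, grouped by class. Filled circles with bars are the pharate fit (4 against 4 libraries, bar SE), open diamonds are the adult deletion mutant over control (1 library each) and open triangles are lower bounds where the adult control had 0 counts. The 9 V1 genes lie at -0.59 to -0.19 in the pharate fit, and the testis-biased paralogs lie mostly to the right of 0 with wide bars; Vha16-2 and Vha16-4 had too few pharate counts for a test.

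For subunit a, 2 paralogs held shares that did not overlap between mutants and controls. Subunit a is the large membrane subunit that forms the proton path and directs the pump to a given membrane, and it has 5 paralogs. Vha100-2, the most abundant of them, supplied 57.6% (SE) and 63.3% (PE) of the a-subunit TPM in the deletion mutant and 57.3 and 60.5% in the point mutant, against 68.6 and 73.6% in FRT19A and 68.8 and 73.2% in W1118. Every mutant library lay below every control library.

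Vha100-5 made up most of the difference. Its share was 30.9% (SE) and 23.4% (PE) in the deletion mutant and 27.6 and 26.7% in the point mutant, against 21.5 and 16.2% in FRT19A and 21.5 and 16.4% in W1118. The mean share of Vha100-2 was 59.7 ± 2.83% in the mutants and 71.0 ± 2.74% in the controls, a difference of -11.4 percentage points. For Vha100-5 it was 27.2 ± 3.11% in the mutants and 18.9 ± 3.02% in the controls, a difference of 8.27 points (SD, n = 4 each). Within the tags the difference was -11.2 (SE) and -11.5 (PE) points for Vha100-2 and 7.79 (SE) and 8.76 (PE) points for Vha100-5.

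These shares were singled out after their values were seen and were not tested. Of 26 shares at the 8 positions with more than 1 gene, 4 (15.4%) had no overlap between mutants and controls: these 2 and the shares of VhaAC39-1 and VhaAC39-2, which mirror each other. Of the levels of all genes tested, 21.6% had no overlap in one direction or the other, so the rate among the shares was no higher. By themselves neither gene passed the edgeR test. Vha100-2 had 1297 ± 512 CPM in the mutants and 1847 ± 906 CPM in the controls (log2 -0.51, SE 0.44, adjusted p = 0.538). Vha100-5 had 519 ± 163 CPM in the mutants and 416 ± 136 CPM in the controls (log2 0.32, SE 0.31, adjusted p = 0.582). Its exons overlap an antisense gene, asRNA:CR44144, on the opposite strand.

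**Figure D3:**
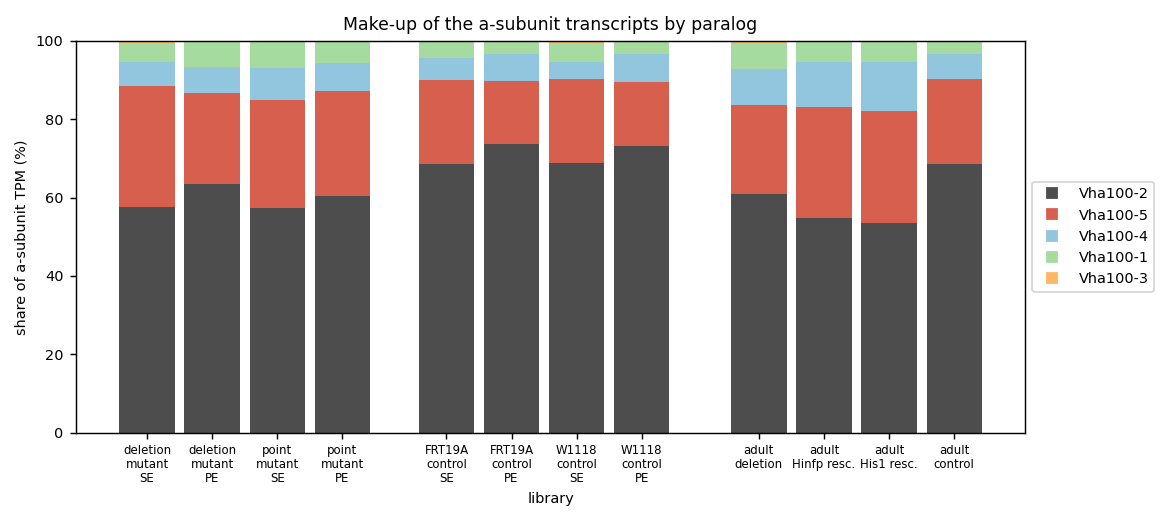
Share of each paralog in the summed TPM of subunit a, 1 stacked bar per library, with the pharate mutants, the pharate controls and the adult libraries from left to right. Vha100-2 (dark grey) reaches 57.3 to 63.3% in the pharate mutants and 68.6 to 73.6% in the pharate controls, and Vha100-5 (red) 23.4 to 30.9% and 16.2 to 21.5%.

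The other a-subunit genes held smaller shares. Vha100-1, placed in the ubiquitous class here although it is best known from synaptic vesicles of neurons, supplied 4.74 to 6.46% of the a-subunit TPM in the mutants and 3.37 to 4.88% in the controls. Its level of 42.8 to 67.8 TPM lay below the 196 to 320 TPM of Vha100-5, which was not placed in that class. Without Vha100-1 all 5 V0 genes of the class were negative, with a median of -0.24, and both PE mutants lay below both PE controls in 13 of 14 ubiquitous genes. It was the sole gene of the class with a positive log2 fold change, 0.38 (SE 0.35; edgeR, adjusted p = 0.558). In PE libraries alone it rose by 0.49 on the log2 scale (edgeR, adjusted p = 0.0379), and the PE fit called 7 V-ATPase genes higher, beside 22.7% of all genes. Its exons overlap Alg13 on the opposite strand.

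Vha100-4, known from the acid-secreting copper cells, had 78.7 and 144 CPM in the SE and PE libraries of the deletion mutant and 103 and 184 CPM in the point mutant, against 88.1 and 214 CPM in the FRT19A libraries and, in the W1118 libraries, 46.1 and 199 CPM. The groups overlapped, and the log2 fold change was -0.10 (SE 0.50). Vha100-4 lies 517 bases after the end of the more abundant Vha100-2 on the same strand of chromosome arm 3R. Its exons overlap cona on the opposite strand. Copper cell markers summed to 291 to 548 CPM in the mutants and 438 to 641 CPM in the controls, with 1 of the 5 at 0 in FRT19A SE, and their part was not tested.

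Among the accessory genes, VhaAC45, a regulator of the pump's assembly and sorting, averaged 1666 ± 195 CPM in the mutants and 1811 ± 480 CPM in the controls (SD, n = 4 each; log2 -0.12, SE 0.25). Its relative VhaAC45RP was rare, at 2.42 CPM (SE) and 1.61 CPM (PE) in the deletion mutant and 2.10 and 2.86 CPM in the point mutant, against 0.837 and 1.56 CPM in the FRT19A libraries and, in the W1118 libraries, 1.46 and 1.43 CPM. It was the single V-ATPase gene with all 4 mutants above all 4 controls, where 9.35% of all genes tested were. The margin over the highest control was small, and the log2 fold change of 0.76 (SE 0.35) did not pass (edgeR, adjusted p = 0.216).

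The remaining paralogs were rare. VhaM9.7-c, an e-subunit gene, held 4.89 to 5.85% of the e-subunit TPM in the mutants and 4.52 to 6.44% in the controls, with a log2 fold change of -0.04 (SE 0.23). VhaM9.7-a of the same position had 0.395 to 0.711 CPM in the mutants and 0.457 to 1.35 CPM in the controls (log2 -0.74, SE 0.46). The proteolipid c paralogs Vha16-2, Vha16-3 and Vha16-4 had at most 18 reads in any pharate library. Vha16-3 had 8 and 18 reads in the SE mutants, 9 and 13 in the PE mutants, 10 and 12 in the SE controls and 1 and 0 in the PE controls. Several testis-biased paralogs, described below, had a like split. Its log2 fold change was 1.29 (SE 0.98; edgeR, adjusted p = 0.480). In PE libraries alone Vha16-3 rose by 4.26 (edgeR, adjusted p = 0.0264), beside 22.7% of all genes called higher. Vha16-2 had 5 reads in each PE mutant library and 0 in the other 6 libraries.

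The testis-biased paralogs behaved unlike the ubiquitous genes. Fitted levels were higher in the mutants for 8 of the 9, with a median log2 fold change of 1.02, but none passed the test. They were rare: the 9 genes together took 618 to 1600 reads per mutant library and 183 to 1452 reads per control library. In 6 of the 9 the PE controls were at or near 0, while the SE controls reached levels close to those of the mutants.

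Vha36-2, a paralog of the rotor subunit D, had 8.89 CPM (SE) and 3.45 CPM (PE) in the deletion mutant and 7.63 and 4.39 CPM in the point mutant, against 4.11 and 0.338 CPM in the FRT19A libraries and, in the W1118 libraries, 7.53 and 0.0422 CPM. Vha100-3, a paralog of subunit a, had 8.09 and 3.13 CPM in the deletion mutant and 5.84 and 4.66 CPM in the point mutant, against 2.80 and 0.295 CPM in the FRT19A libraries and, in the W1118 libraries, 6.31 and 0.0843 CPM. In both genes the PE mutants stood far above the PE controls. In the SE libraries W1118 lay just below both mutants for Vha36-2 and between them for Vha100-3.

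Vha14-2, a paralog of the rotor subunit F, had 4.79 and 1.84 CPM (SE and PE) in the deletion mutant and 3.97 and 1.93 CPM in the point mutant, against 2.18 and 0.0844 CPM in the FRT19A libraries and, in the W1118 libraries, 4.42 and 0 CPM. VhaM9.7-d, an e-subunit paralog, had 4.43 and 1.66 CPM in the deletion mutant and 2.51 and 1.93 CPM in the point mutant, against 2.26 and 0.0422 CPM in the FRT19A libraries and, in the W1118 libraries, 2.80 and 0 CPM. These genes differed in their mutant effect between tags.

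The mutant effect in PE minus SE libraries was 5.66 on the log2 scale for VhaM9.7-d (SE 0.93; edgeR, Benjamini-Hochberg adjusted p = 0.0246) and 4.92 for Vha14-2 (SE 1.03, adjusted p = 0.0459). They were the 2 V-ATPase genes called in that test, beside 5.81% of all genes called higher and 0.264% called lower. Vha100-3 (3.71, SE 0.86, adjusted p = 0.0630) and Vha36-2 (3.83, SE 0.92, adjusted p = 0.0692) came next and did not pass. Leaving out any mutant library, or W1118 SE, ended both calls, and leaving out W1118 PE ended that of Vha14-2. Because the PE controls had 0 to 2 reads for VhaM9.7-d and Vha14-2, these fitted values depend on the prior count and are not bounds.

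Vha68-3, a paralog of the catalytic subunit A, was the most abundant of the class. It had 27.6 and 14.5 CPM (SE and PE) in the deletion mutant and 20.7 and 20.2 CPM in the point mutant, against 10.7 and 5.02 CPM in the FRT19A libraries and, in the W1118 libraries, 18.9 and 6.37 CPM. Only W1118 SE reached into the mutant range. The log2 fold change was 1.02 (SE 0.43; edgeR, adjusted p = 0.187). It rose by 1.15 on the log2 scale in the blocked fit (adjusted p = 0.0239) and by 1.49 without W1118 SE (adjusted p = 0.0337; 4.66% of all genes were called higher in that fit). Vha68-3 starts 178 bases after the end of the far more abundant Vha68-2 on the same strand of chromosome arm 2L (BDGP6, Vha68-3 at 12978786 to 12981293).

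VhaAC39-2, a paralog of subunit d, did not follow the tag. It had 1.57 and 2.81 CPM (SE and PE) in the deletion mutant and 2.47 and 2.90 CPM in the point mutant, against 1.16 and 1.65 CPM in the FRT19A libraries and, in the W1118 libraries, 0.823 and 0.632 CPM. Only FRT19A PE reached above the lowest mutant library. The log2 fold change was 1.19 (SE 0.41; edgeR, adjusted p = 0.110). VhaAC39-2 rose by 1.17 on the log2 scale in the blocked fit (adjusted p = 0.0488), which called 2 V-ATPase genes higher, beside 12.3% of all genes, and it was the gene called by DESeq2 (log2 1.24, adjusted p = 0.0123).

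The last 3 genes of the class had few reads. VhaPPA1-2, a paralog of the proteolipid c'', had 0.368 to 0.842 CPM in the mutants and 0 to 0.671 CPM in the controls (log2 1.22, SE 0.99), and its exons overlap CG3817 on the opposite strand. Vha16-5 had 0.366 to 0.524 CPM in the mutants and 0.0422 to 0.427 CPM in the controls (log2 0.81, SE 0.68). Vha36-3 went by tag alone, with 1.91 and 2.01 CPM in the SE mutants and 1.67 and 2.35 CPM in the SE controls, and 0.322 and 0.395 CPM in the PE mutants and 0.253 and 0.590 CPM in the PE controls.

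Testis markers moved with the class. The 21 markers found summed to 992 and 377 CPM (SE and PE) in the deletion mutant and 737 and 425 CPM in the point mutant, against 493 and 98.6 CPM in the FRT19A libraries and, in the W1118 libraries, 830 and 95.4 CPM. As for Vha36-2 and Vha100-3, the deletion SE library was the highest of the 8 and both PE controls were the lowest. The 9 paralogs together amounted to 6.46 to 8.63% of that marker sum in the mutants and 4.95 to 7.55% in the controls. Among the defining markers, betaTub85D, a tubulin of the male germline, had 41.8 to 114 CPM in the mutants and 0.804 to 92.8 CPM in the controls, and 2 of the 21 were at 0 in W1118 PE. The part of testis RNA in the paralog values was not tested.

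**Figure D4:**
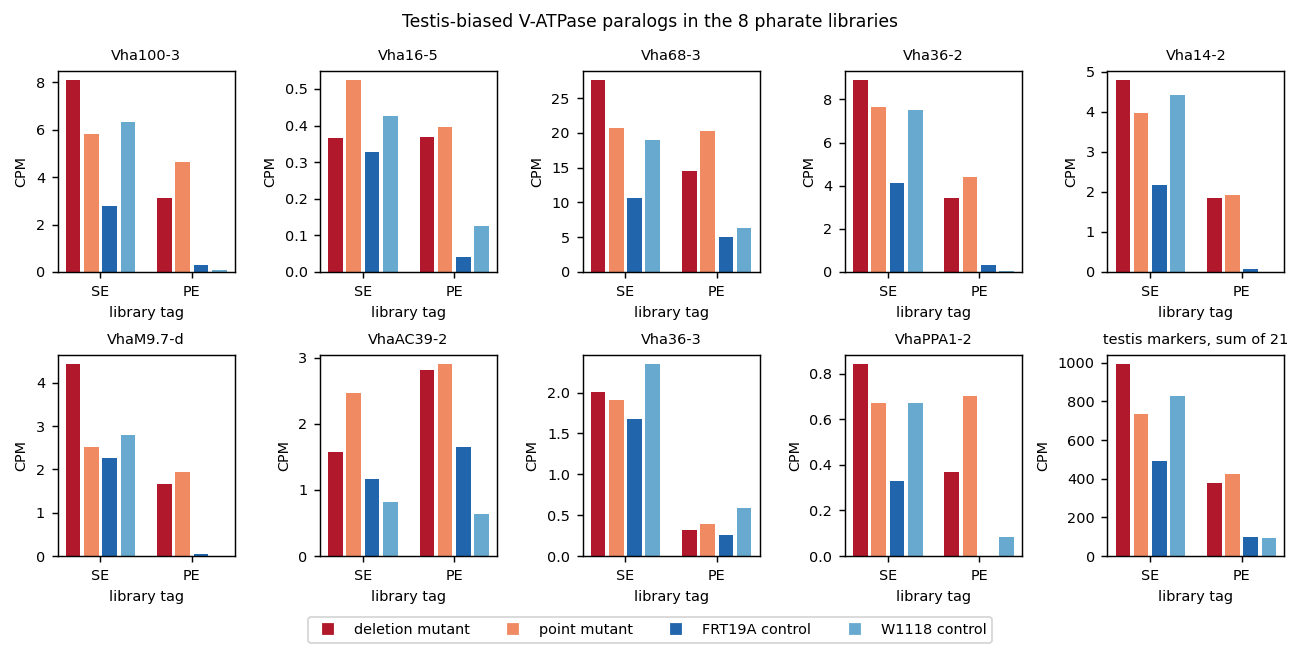
Level of the 9 testis-biased V-ATPase paralogs, in CPM, and the summed CPM of 21 testis markers in each of the 8 pharate libraries, with SE libraries on the left and PE libraries on the right of each panel. In SE libraries the W1118 control lies near the mutants (red, orange) for most genes; in PE libraries the controls are near 0 for Vha36-2, Vha100-3, Vha14-2 and VhaM9.7-d, while the mutants reach 1.66 to 4.66 CPM.

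No V-ATPase gene was called in the deletion mutant against both controls (0.378% of all genes were called higher and 0.0151% lower) or in the point mutant against both controls (0.687% higher and 0.0604% lower). At an unadjusted p under 0.05 (edgeR) there were 0 V-ATPase genes for the deletion and 1 for the point mutant. Of all 13244 genes tested, 2136 and 2063 were under it. DESeq2 called 0 and 1 V-ATPase genes, and its shares over all genes in these contrasts are not given here. The 9 V1 genes had medians of -0.39 in the deletion mutant and -0.33 in the point mutant, all 9 negative in each, and the testis-biased class had medians of 1.09 and 1.04. The alleles share their controls in these contrasts. Set against each other, deletion over point gave 0 V-ATPase calls, as it did for all genes (0% in either direction, with 34 genes at an unadjusted p under 0.05), and a V1 median of -0.07.

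Genes that work with the pump were taken from 4 lists. The assembly and regulation list held 7 genes, of which 6 were tested; all 6 had negative log2 fold changes (median -0.51) and none passed the edgeR test. Rbcn-3A, a subunit of the RAVE-like complex that assembles the pump, had 334 ± 68.9 CPM in the mutants and 490 ± 111 CPM in the controls (log2 -0.56, SE 0.23, adjusted p = 0.168). CG5969, the counterpart of a yeast assembly factor, had a log2 fold change of -0.52 (adjusted p = 0.181), and Mitf, the transcription factor of lysosomal and V-ATPase genes, one of -0.75 (adjusted p = 0.184). In the blocked fit 4 of the 6 fell, namely these 3 and Rbcn-3B, beside 19.2% of all genes called lower in that fit.

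The ion and water transport list, whose members use or accompany the pump's gradient in epithelia, had 7 of 24 genes lower and 0 higher, beside 6.34% of all genes lower and 4.59% higher, with a median log2 fold change of -0.79. ClC-a, a chloride channel of stellate cells, fell to 131 ± 12.8 CPM in the mutants, against 253 ± 33.2 CPM in the controls (log2 -0.95, SE 0.14; edgeR, adjusted p = 0.00856). CAH2, a carbonic anhydrase, fell by 2.52 (SE 0.54, adjusted p = 0.0266) and Eglp2, a channel of the aquaporin family, fell by 0.82 (SE 0.19, adjusted p = 0.0327) on the log2 scale. The others were Nha1, Irk3, Eglp4 and Ncc69. The summed stellate-cell markers had no overlap between mutants and controls. They do not include ClC-a, but SecCl and Drip belong to both lists, so the sum is not independent of this list. SecCl averaged 75.3 CPM in the mutants and 140 CPM in the controls, and Drip 202 and 343 CPM. Lkr, a marker outside the transport list, overlapped, at 15.6 to 22.3 CPM in the mutants and 20.2 to 29.7 CPM in the controls. The part of stellate cells in the values of the transport list was not tested. The blocked fit called 14 lower and 1 higher, beside 19.2% of all genes lower and 12.3% higher. With 1 library left out the count lower ran from 1 to 10, with 10 without W1118 SE and 1 to 3 without any other library, and ClC-a passed in all 8 such fits, CAH2 in 3 and Eglp2 in 2.

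In the lysosome list 3 of 18 tested genes (22 listed) were higher and 1 lower, beside 4.59% of all genes higher and 6.34% lower, with a median of 0.34. One of the 3, Tpc1, encodes a mitochondrial thiamine pyrophosphate carrier and does not belong in the list; without it 2 of 17 were higher, with a median of 0.32. The cathepsin gene CtsB had 328 ± 30.7 CPM in the mutants and 202 ± 23.0 CPM in the controls (log2 0.70, SE 0.14; edgeR, adjusted p = 0.0199). The other was the cathepsin gene cathD (log2 0.91, SE 0.23, adjusted p = 0.0452), and Lamtor4, part of the complex that docks mTORC1 at the lysosome, fell by 0.74 on the log2 scale (SE 0.16, adjusted p = 0.0254). The blocked fit called 6 higher and 2 lower (5 and 2 without Tpc1), beside 12.3% and 19.2% of all genes. With 1 library left out, 0 to 2 genes were called higher and 0 or 1 lower, with none in either direction except without FRT19A SE (1 higher) and W1118 SE (2 higher and 1 lower); CtsB passed in 2 of the 8 such fits.

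The mitochondrial ATP synthase, the related rotary enzyme that makes ATP, had 6 of its 15 tested genes lower and 0 higher, beside 6.34% of all genes lower and 4.59% higher, with a median log2 fold change of -0.73. The log2 fold change was negative for 11 of the 15. The others were the rare ATPsynepsilonL, ATPsynbetaL, ATPsynGL and ATPsynCF6L, with mutant means of 1.05 to 2.68 CPM. Their log2 fold changes were positive, at 0.61 to 1.20, and did not pass the edgeR test. ATPsyndelta fell to 178 ± 15.0 CPM in the mutants, against 301 ± 15.8 CPM in the controls (log2 -0.76, SE 0.12; edgeR, adjusted p = 0.00973). ATPsynB and ATPsynE fell by 0.84 and 0.72 on the log2 scale (SE 0.14 and 0.12, adjusted p = 0.0116 and 0.0129). The blocked fit called 11 lower, beside 19.2% of all genes. With 1 library left out the count lower ran from 2 to 9, with 9 without W1118 SE and 2 or 3 without any other library; ATPsyndelta and ATPsynB passed in all 8 such fits and ATPsynE in 6. The difference between the ATP synthase and V-ATPase lists was not tested.

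The adult libraries gave 1 value per genotype, so no test was made, and intervals cover counting error only. A gene was called where the ratio of CPM was 2-fold or more and at least 1 library had 10 reads. In the Hinfp deletion mutant over the control, 31 of the 33 V-ATPase genes had enough reads. Of the 31, 11 were higher and 1 lower, beside 33.1% of all genes higher and 11.4% lower, so the share higher was near that of all genes. Of the 11, 8 were testis-biased paralogs, and the others were Vha16-2, Vha16-3 and VhaAC45RP. All but Vha68-3, VhaAC39-2 and VhaAC45RP had under 10 reads in the control. They met the read rule through the mutant library alone and could not have been called lower. No ubiquitous gene was called.

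The testis-biased paralogs of the adult mutant stood far above the control. Vha36-2 had 264 reads in the mutant and 1 in the control, 297-fold by CPM with an exact 95% interval of 52.9 to 11784. Vha100-3 had 251 reads in the mutant and 3 in the control, 94.2-fold (31.9 to 460). Vha68-3 had 832 reads in the mutant and 43 in the control, 21.8-fold (16.0 to 30.3). All 3 intervals lie above 10-fold.

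Vha14-2 (85 reads), VhaM9.7-d (72), VhaPPA1-2 (34), Vha16-3 (24) and Vha16-2 (11) had 0 reads in the control. Against a floor of 3 reads in the control, the ratios were 31.9, 27.0, 12.8, 9.01 and 4.13 in this order. Exact 95% intervals, which also hold the counting error of the mutant, put them at least 25.4-fold, 21.4-fold, 9.82-fold, 6.78-fold and 2.83-fold higher in the mutant. VhaAC39-2 had 56 reads in the mutant and 16 in the control, 3.94-fold (2.23 to 7.36), and Vha16-5 had 19 in the mutant and 1 in the control. Vha36-3 had 6 reads in each. As in the pharate set, the testis markers moved with them, at 1107 CPM in the mutant and 76.1 CPM in the control. The 9 paralogs were 8.13% of the marker sum in the mutant and 4.54% in the control.

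VhaAC45RP had 45 reads in the mutant and 13 in the control, 3.90-fold (2.07 to 7.87). The single gene called lower was VhaM9.7-a, with 8 reads in the mutant and 20 in the control. Its interval of 0.172 to 1.07 as a ratio included 1.

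Among the ubiquitous genes of the adult mutant, 8 of 9 V1 genes and 5 of 6 V0 genes were below the control. The median log2 ratio was -0.42 for V1 and -0.25 for V0, beside 0.30 over all genes counted, so the scaling by total counts left the typical gene above 0. Vha14-1 was again the lowest of the V1 genes, with 7092 reads in the mutant and 12442 in the control (log2 ratio -0.64), and Vha13 came next (-0.56). All V-ATPase genes together were 2.69% of gene counts in the mutant and 3.41% in the control.

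In the rescues the testis-biased paralogs had few reads, as in the control, while most ubiquitous genes lay below the control. The 9 paralogs together had 79 reads in the Hinfp rescue, 70 in the His1 rescue and 70 in the control. For each rescue, 23 of the 33 V-ATPase genes had at least 10 reads in it or in the control. Of the testis-biased paralogs these were 2, Vha68-3 and VhaAC39-2, so the others could not be called. With Hinfp overexpressed, no V-ATPase gene was called against the control (10.5% of all genes were higher and 11.8% lower), and Vha36-2 had 1 read, Vha100-3 0 and Vha68-3 58. With His1 overexpressed, 1 gene was called higher than in the control, VhaAC45RP with 30 reads against 13, and 0 lower (11.8% of all genes were higher and 10.5% lower). Vha36-2 had 1 read there, Vha100-3 0 and Vha68-3 51. Testis markers summed to 64.5 CPM in the Hinfp rescue and 74.0 CPM in the His1 rescue.

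Against the mutant, the Hinfp rescue had 11 V-ATPase genes lower and 0 higher, beside 30.3% of all genes lower and 7.71% higher. The His1 rescue had 10 lower and 1 higher (VhaM9.7-a), beside 29.2% lower and 8.35% higher. In each case 8 of those lower were the testis-biased paralogs that had been higher in the mutant. Both comparisons share the mutant library. Most of the genes called lower met the read rule through that library alone and could not have been called higher. Each comparison counted 31 of the 33 V-ATPase genes.

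The V1 genes were below the control in both rescues, 9 of 9 in each, with a median log2 ratio of -0.52 in the Hinfp rescue and -0.52 in the His1 rescue, where the medians of all genes were 0.00 and 0.01. The V0 medians were -0.48 and -0.48, with 5 of 6 genes negative in each. Vha14-1 had log2 ratios of -0.81 (Hinfp rescue) and -0.65 (His1 rescue) to the control, and Vha100-2 ones of -0.77 and -0.79. The V-ATPase genes together made up 2.45% of gene counts in the Hinfp rescue and 2.52% in the His1 rescue. Both rescues share the control library and, like the mutant, came from older flies than it.

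The share of Vha100-2 in the a-subunit TPM, here computed from the deposited counts and gene lengths, was 61.0% in the adult mutant, 54.7% in the Hinfp rescue and 53.5% in the His1 rescue, against 68.7% in the control. Vha100-5 held 22.6, 28.3 and 28.6% in these 3, against 21.4% in the control. Vha100-4 held 9.13, 11.7 and 12.6%, against 6.44%. For these 3 the rescues lay farther from the control than the mutant did. For the other 2 they lay nearer: Vha100-1 held 6.73% in the mutant, 5.33% in the Hinfp rescue and 5.35% in the His1 rescue, against 3.44% in the control, and Vha100-3 held 0.543% in the mutant and 0% in each rescue, against 0.00467% in the control. Enterocyte markers summed to 14401 CPM in the mutant, 36312 CPM in the Hinfp rescue and 32695 CPM in the His1 rescue, against 13494 CPM in the control, and their part in the shares was not tested.

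The His1 rescue differed little from the Hinfp rescue. It had 1 V-ATPase gene higher, VhaM9.7-a with 24 reads against 10, and 0 lower, beside 5.35% of all genes higher and 3.25% lower. The median log2 ratio of the V1 genes between the rescues was 0.09 and that of the V0 genes was -0.01.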

How the data were processed

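RNA was measured in 8 pharate and 4 adult libraries. The authors' deposited gene counts are whole reads per gene, used unchanged, and their deposited TPM values were used for levels between pharate genes. STAR 2.5.3a and featureCounts 1.5.2 (1.6.2 for the adult set) are named per the submitters' processing notes, with builds BDGP6 and dm6. The labels describe ribosomal RNA removal in one field and poly-A selection in another. Strand use in counting is not given in the sources used here, so reads of overlapping genes on opposite strands cannot be told apart.

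Symbols and coordinates came from Ensembl release 115 (BDGP6). The main test of counts was the quasi-likelihood F test of edgeR 4.0.16, run under R 4.3.3 (filterByExpr minimum count 10, TMM, two-sided, Benjamini-Hochberg over 13244 genes, threshold 0.05), a step also run on simulated data, and CPM use TMM-scaled library sizes. Adult CPM use total gene counts, and adult TPM were computed from the deposited counts and lengths. Adult fold intervals are exact binomial 95% intervals, ratios to a count of 0 also use a floor of 3, and marker sums are CPM of total gene counts.

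Alternatives were DESeq2 1.42.0, other scaling and filters, single libraries left out, each tag alone and the replicate number as a block. Same-numbered libraries deviated together (correlations 0.65 to 0.85), so the numbers pair the libraries by tag. No label ties libraries to separate cultures; the p-values then reflect just the scatter of these libraries, which may be technical. Named genes are all V-ATPase genes, the 3 members of each list with the smallest adjusted p, and Hinfp and HIS1; others are named where a short count called for it. Members, classes, lists and tests were chosen with earlier results of these data known. Another 112 per-sample columns were not used.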

Additional observations from a re-analysis of the deposited data

Results flagged for a closer look

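The mutant effect differed between PE and SE libraries for VhaM9.7-d (5.66 on the log2 scale) and Vha14-2 (4.92), by the edgeR test of that difference (Benjamini-Hochberg adjusted p = 0.0246 and 0.0459). In the 65 groups of 4 libraries with any spread (33 genes, mutants or controls), 0 single libraries stood apart from the other 3 by Dixon's test; chance alone would mark about 1 group in 20.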

How the results depend on the processing

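The counts of V-ATPase genes called were 0 in both directions for each allele, deletion over point and W1118 over FRT19A under every alternative, except 1 higher (VhaAC39-2) for the point mutant by DESeq2. For mutants against controls DESeq2 called 1 higher, the replicate block 2 higher and 1 lower, PE libraries alone 7 higher and 2 lower, and the fits without 1 library 0 to 1 higher and 0 to 1 lower. The PE minus SE test called 1 higher with RLE normalization, 1 with no low-count filter, 4 by DESeq2 and 0 to 4 without 1 library. The replicate block gave for the lists 4 lower (assembly), 6 higher and 2 lower (lysosome), 1 higher and 14 lower (transport) and 11 lower (ATP synthase). DESeq2 gave 4 higher and 1 lower (lysosome), 1 higher and 11 lower (transport) and 1 higher and 11 lower (ATP synthase). It called 9.11% of all genes higher. Its share of all genes called lower, and its shares in the PE minus SE test, are not given here, so those counts have no background beside them. With Tpc1 removed from the lysosome list, chosen after seeing the data, 2 were higher and 1 lower, and 0 to 1 higher without 1 library. Without 1 library, an alternative also chosen after seeing the data, the counts were 0 to 2 higher and 0 to 1 lower (lysosome), 1 to 10 lower (transport) and 2 to 9 lower (ATP synthase); each highest count came without W1118 SE.

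Some values changed sign, not all of them near 0, and the cause was not tested. VhaM9.7-c became 0.013 (RLE), 0.013 (DESeq2) and 0.088 (PE alone), and Vha100-4 became 0.051 (replicate block) and 0.42 (SE alone). In SE alone VhaSFD became 0.027, VhaM9.7-b 0.011 and VhaM9.7-a 0.032. VhaM9.7-a stood at -0.74 in the main fit and at -1.33 in PE alone. With 1 library left out the log2 fold change ran from -0.35 to 0.044 for VhaPPA1-1 (above 0 without FRT19A SE), from -0.19 to 0.16 for VhaM9.7-c (above 0 without the deletion SE library or FRT19A SE), from -0.42 to 0.20 for Vha100-4 (above 0 without the deletion SE library, FRT19A PE or W1118 PE) and from -0.47 to 0.47 for Vha36-3 (above 0 without either PE mutant library or either SE control library). In all, 404 single-gene values and shares kept direction and side of the threshold, 15 came to pass it and 18 changed sign. The adult counts were identical with TMM scaling. Paralogs under 1 CPM rest on few reads per library.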
